A study of Rattus norvegicus with 54 samples.

Results

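At 6 h, rat cortical cultures carrying a GFP virus were compared with cultures that received no virus. The comparison used 12 of the 54 libraries of a series on Mbd3 in epileptogenesis. They were all the libraries whose titles named 6 h and either the GFP virus or no transfection, 6 of each kind. The cells were labelled as neurons from the cortex of rat embryos at stage E18, and messenger RNA was sequenced from each culture with a stranded kit. Each arm held 3 libraries in a standard medium with magnesium and 3 in a medium without magnesium, which the submitters describe as an epileptiform condition. The 4 groups were therefore GFP virus with magnesium, GFP virus without magnesium, untransfected with magnesium and untransfected without magnesium, each with cultures 1, 2 and 3. The GFP arm was labelled AAV_SYN_GFP and served the study as its control virus. Other arms of the series received a virus with rMBD3 and GFP, or were harvested at 2 h or 24 h. The times are those of the titles, where untransfected libraries carry them too. The event they are counted from is not given here, so they are not read as time since the virus was added.

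Adeno-associated viruses (AAV) are small DNA viruses from which the viral genes are removed to make vectors. Their particles enter the cell, reach the nucleus and have their single DNA strand copied before the cargo gene can be transcribed. The SYN promoter is taken from a synapsin gene and drives the cargo mainly in neurons, so glia in the same dish can take up particles without making much GFP. Magnesium ions block the pore of NMDA-type glutamate receptors at rest, and removing them from the medium lets neurons fire in synchronised bursts. A comparison of the control virus with no virus shows what particle, vector genome, GFP and handling do together, and these cannot be told apart in this design.

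The 12 libraries held 16965518 to 31712521 counts, with a median of 25119898 in the GFP arm and 27194403 in the untransfected arm. A level of 3 counts was taken as a floor for reading levels and entered no test or filter. It corresponded to 0.0946 to 0.177 CPM, a unit that scales each count to the size of its library. This floor covers counting error only, because reads carried no molecular identifiers. The number of genes with a count ranged from 16732 to 18810 per library. The first principal component of the 12 libraries held 39.6% of the variance, and culture number accounted for 92.8% of it, against 0.195% for the virus and 2.14% for the medium. Culture 1 stood apart, with scores of 33.7 to 88.2, while cultures 2 and 3 lay between -47.9 and -11.4. On the second component, with 12.1% of the variance, the virus accounted for 36.4% and the medium for 21.7%. Culture number was therefore kept as a block in the model, along with the medium. The labels call the number a biological replicate and do not say whether it stands for a separate litter or day. The p-values measure the spread of the 12 libraries that is left after culture and medium are taken out. Differences between the 3 cultures in general level are thus not in it, and libraries of a culture in different media count separately. The count table names genes by Ensembl identifier only. The labelled cell type was thus not checked against neuronal or glial marker genes, and GFP itself was not analysed here.

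No gene passed the threshold of an adjusted p of 0.05 between GFP and untransfected cultures at 6 h. The edgeR quasi-likelihood test with Benjamini-Hochberg adjustment covered 15654 genes, called 0 of them (0%), and gave a smallest adjusted p of 0.135. At an unadjusted p under 0.05 there were 1946 genes (12.4%), of which 980 were higher with the virus (6.26%) and 966 lower (6.17%). DESeq2, applied to the same 12 libraries with the same terms, called 167 genes (0.876% of 19055), 71 higher and 96 lower. Of these 167 genes, 147 were also tested by edgeR, and all 147 had an unadjusted edgeR p under 0.05 with the same sign. A further 20 were removed by the low-count filter of the edgeR fit. Leaving out culture 3 took the 1946 genes to 1021 (348 higher, 673 lower), and leaving out the GFP library of culture 1 with magnesium took them to 1237. The 0 genes past the threshold in edgeR became 4 without culture 1 and 2 without culture 2. They became 1 without the untransfected library of culture 1 or of culture 3 with magnesium. The count of genes past the threshold therefore depended on the tool and on single cultures.

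The sizes of the differences were small for most genes. The median log2 fold change was -0.0026 and the median absolute log2 fold change 0.17, with a median standard error (SE) of 0.16. For 11869 genes (75.8%) the 95% interval of the difference lay wholly within 2-fold in either direction. The intervals use the same spread as the p-values, left after culture and medium are taken out. They too count libraries of a culture in different media separately. This precision followed the level of the gene. At 10 to 100 CPM the interval excluded a 2-fold difference for 97.2% of 7359 genes, and at 100 CPM and above for 98.2% of 2388 genes. At 1 to 10 CPM it did so for 63.9% of 3667 genes, and below 1 CPM for 1.03% of 2240 genes, where the median SE was 0.72. A fitted difference of at least 2-fold was seen for 522 genes, of which 398 lay below 1 CPM. Between 10 and 100 CPM 17 genes reached that size, and at 100 CPM and above 1 gene did. In bulk cultures such as these, fewer cells of a type and less RNA per cell cannot be told apart.

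**Figure D1:**
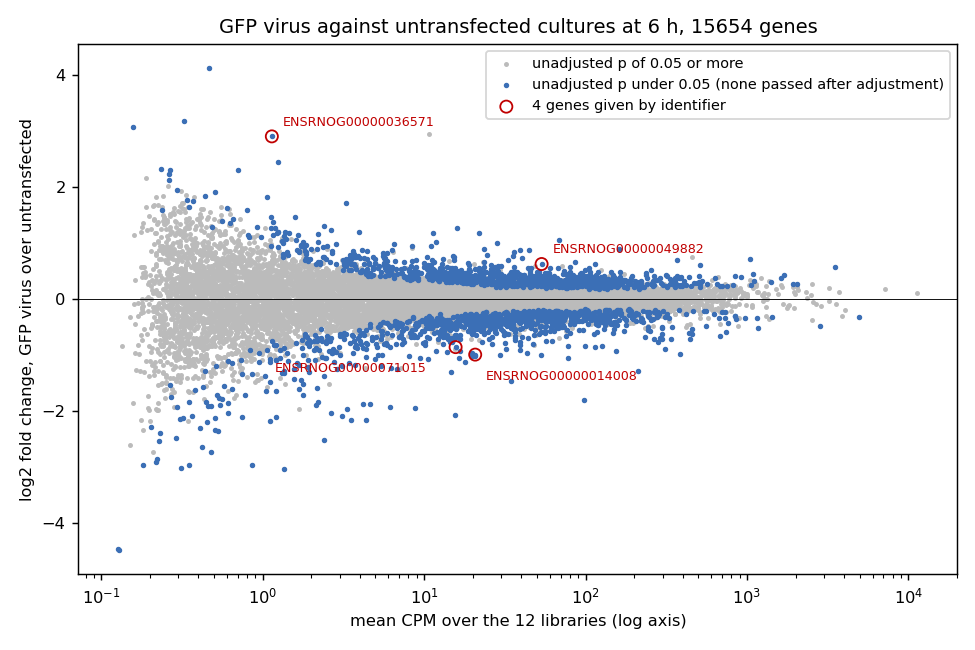
Each point is 1 of 15654 genes, with its mean level over the 12 libraries in CPM on a log axis and its log2 fold change of GFP virus over untransfected cultures at 6 h. Blue points are the 1946 genes with an unadjusted p under 0.05, none of which passed after adjustment, and red circles mark the 4 genes given by identifier. Most fold changes of 2 or more lie at the left, below 1 CPM.

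Agreement between cultures was the next measure. Libraries of the same culture number and medium formed 6 pairs, each of 1 GFP and 1 untransfected library. In 943 genes (6.02%) the GFP library was higher in 6 of 6 pairs, and in 618 genes (3.95%) it was lower in 6 of 6, together 1561 genes (9.97%). The levels of the 6 GFP libraries and the 6 untransfected libraries did not overlap for 40 genes (0.256%), 23 of them higher with the virus (0.147%) and 17 lower (0.109%).

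Genes to describe one by one were those with the smallest p among genes with the same sign in 6 of 6 pairs and a mean of at least 1 CPM, 8 in each direction. None passed the threshold in edgeR, where their adjusted p ranged from 0.135 to 0.153, while DESeq2 called 15 of the 16. The 8 higher genes lay on 8 different chromosomes and had log2 fold changes of 0.62 to 2.90 (median 1.06) at mean levels of 1.14 to 86 CPM. The 8 lower genes lay on 7 chromosomes and had log2 fold changes of -2.07 to -0.60 (median -0.93) at 10.1 to 385 CPM. Their arms did not overlap for 2 higher genes and 1 lower gene. Because the choice used p and sign, these counts describe the genes and carry no test.

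Of the higher genes, ENSRNOG00000036571 had the smallest p. It lies on chromosome 1 from 260388902 to 260398790 on the plus strand (mRatBN7.2), with 14 exon blocks and 2286 exonic bases. In untransfected cultures 1, 2 and 3 its level was 0.297, 0 and 0.0714 CPM with magnesium and 0.73, 0.372 and 0.312 CPM without it, resting on 0 to 20 counts per library. With the GFP virus the same cultures had 1.33, 1.12 and 0.935 CPM with magnesium and 4.6, 1.66 and 2.25 CPM without it, from 24 to 111 counts. Every GFP library was above every untransfected library, and the highest value was that of culture 1 without magnesium.

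The group means for ENSRNOG00000036571 were 1.98 ± 1.36 CPM with the virus and 0.297 ± 0.258 CPM without (SD, n = 6 each). The fitted difference on the log2 scale was 2.90 (SE 0.49, edgeR adjusted p = 0.135), made up of 3.42 with magnesium and 2.54 without. At 2 h this difference was 2.02 (edgeR adjusted p = 0.634) and at 24 h 1.73 (edgeR adjusted p = 0.342). Cultures with the rMBD3 virus, an arm compared here by value only, had 2.49 to 5.28 CPM at 6 h, with a median of 3.31 against 1.5 with the GFP virus. The medians of untransfected, GFP and rMBD3 cultures were 0.126, 0.633 and 1.67 CPM at 2 h and 0.303, 0.869 and 2.82 CPM at 24 h. The order of the 3 medians was thus the same at the 3 times, though the ranges of GFP and rMBD3 cultures overlapped at each. The ranges of untransfected and GFP cultures also overlapped at 2 h and at 24 h.

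ENSRNOG00000049882 was the second of the higher genes, at a level far above the floor. It lies on chromosome 9 from 113103718 to 113109773 on the minus strand (mRatBN7.2), with 5 exon blocks and 2117 exonic bases. Untransfected cultures 1, 2 and 3 had 42, 31.9 and 61.8 CPM with magnesium and 44, 29.5 and 40.6 CPM without it. GFP cultures had 72.7, 47 and 91.4 CPM with magnesium and 53.4, 47 and 79.9 CPM without it. Each GFP library was above its untransfected partner, but the arms overlapped, since untransfected culture 3 with magnesium exceeded 3 GFP libraries.

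For ENSRNOG00000049882 the means were 65.3 ± 18.8 CPM with the virus and 41.6 ± 11.5 CPM without (SD, n = 6 each), a log2 fold change of 0.62 (SE 0.10, adjusted p = 0.135, edgeR). The value was 0.61 with magnesium and 0.63 without it. At 2 h the log2 fold change was 0.41 (adjusted p = 0.92, edgeR) and at 24 h -0.12 (adjusted p = 0.86, edgeR). The rMBD3 cultures at 6 h had 32.6 to 56.6 CPM with a median of 48.5, between the medians of untransfected (41.3) and GFP (63) cultures.

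Of the lower genes, ENSRNOG00000014008 had the smallest p. It lies on chromosome 5 from 135225816 to 135240690 on the minus strand (mRatBN7.2), with 14 exon blocks and 2132 exonic bases. Untransfected cultures 1, 2 and 3 had 22.5, 29.3 and 37.6 CPM with magnesium and 22.2, 26.6 and 25.6 CPM without it. GFP cultures had 7.6, 20.7 and 12.6 CPM with magnesium and 12.5, 18 and 13.5 CPM without it. The arms did not overlap, with culture 2 giving the highest GFP value in each medium.

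The means for ENSRNOG00000014008 were 14.1 ± 4.62 CPM with the virus and 27.3 ± 5.7 CPM without (SD, n = 6 each), a log2 fold change of -0.999 (SE 0.17, adjusted p = 0.135, edgeR). The 6 pairs differed by -1.57 to -0.50. At 2 h the log2 fold change was -1.11 (adjusted p = 0.252, edgeR) at a lower level, with medians of 4.31 CPM in GFP and 8.54 CPM in untransfected cultures. At 24 h it was 0.26 (adjusted p = 0.773, edgeR), with medians of 17.8 and 18.6 CPM. The difference between the 6 h and 24 h values was -1.26 (SE 0.39) and did not pass the threshold (adjusted p = 0.435, edgeR). The rMBD3 cultures at 6 h had 11.9 to 15.4 CPM, below every untransfected library.

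ENSRNOG00000071015 was the second of the lower genes. It lies on chromosome 10 from 63074469 to 63076501 on the plus strand (mRatBN7.2), a short gene with 4 exon blocks and 1321 exonic bases. Untransfected cultures 1, 2 and 3 had 25.6, 14.3 and 13 CPM with magnesium and 34.7, 14.9 and 19.3 CPM without it. GFP cultures had 9.16, 8.53 and 8.57 CPM with magnesium and 19.8, 8.29 and 12 CPM without it. Culture 1 without magnesium was the highest library in each arm, and through its GFP value the arms overlapped.

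For ENSRNOG00000071015 the means were 11.1 ± 4.5 CPM with the virus and 20.3 ± 8.41 CPM without (SD, n = 6 each), a log2 fold change of -0.87 (SE 0.16, adjusted p = 0.135, edgeR). At 2 h the value was -0.84 (adjusted p = 0.156, edgeR) and at 24 h -0.10 (adjusted p = 0.891, edgeR). The rMBD3 cultures at 6 h had 9.35 to 17 CPM with a median of 11.3, against 8.87 in GFP and 17.1 in untransfected cultures. The rMBD3 and GFP arms were set against the same untransfected libraries, so their likeness is no independent evidence for any of the 4 genes.

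**Figure D2:**
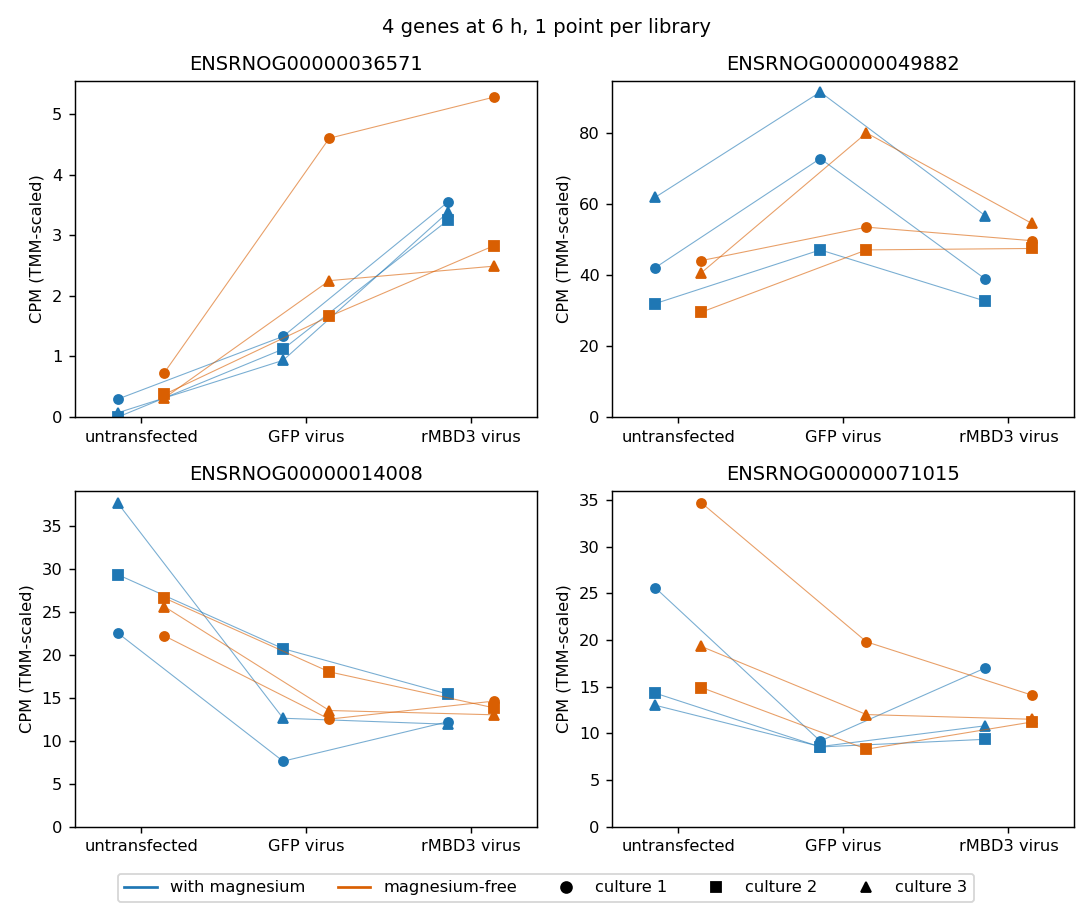
Levels in CPM (scaled by TMM) of the 4 genes in untransfected, GFP and rMBD3 cultures at 6 h, 1 point per library, with colour for the medium, symbol for the culture and lines joining the same culture and medium. Every GFP point lies above its untransfected partner in the upper panels and below it in the lower panels. The untransfected and GFP arms do not overlap for the 2 genes on the left.

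The other 12 genes of the rule are described by their range. The 6 higher ones had log2 fold changes of 0.65 to 2.44 (SE 0.11 to 0.47) at 1.25 to 86 CPM, and 1 of them had arms that did not overlap. The 6 lower ones had log2 fold changes of -2.07 to -0.60 (SE 0.12 to 0.40) at 10.1 to 385 CPM, and all 6 had overlapping arms. All 12 had the same sign at 2 h as at 6 h, and 11 had it at 24 h, 6 of the higher and 5 of the lower genes. With the 4 genes given by identifier included, 7 of the 8 higher and 6 of the 8 lower genes kept their sign at 24 h. Over all genes tested at both times, 50.9% had the same sign at 24 h as at 6 h. That share for 2 h is not given here, and the same culture numbers ran through all times.

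Whether the virus effect depended on the medium was asked next. With magnesium edgeR called 0 genes (0%), with 1468 at an unadjusted p under 0.05 (766 higher, 702 lower) and a smallest adjusted p of 0.471. That balance turned under other settings, to 696 higher and 854 lower with no low-count filter, 662 and 712 with the stricter filter, 722 and 758 with no scaling factors, and 467 and 577 with all 54 libraries and the block. It was 348 and 531 without culture 1, 770 and 981 without culture 2, and 295 and 504 without culture 3. Without magnesium it called 0 genes (0%), with 816 at an unadjusted p under 0.05 (426 higher, 390 lower) and a smallest adjusted p of 0.867, which became 275 and 364 without culture 1 and 252 and 191 without culture 3. DESeq2 called 97 and 116 genes. The difference between the media, tested itself, gave 0 genes in edgeR (0%), with 472 (3.02%) at an unadjusted p under 0.05, and 22 in DESeq2. At the median gene the SE of that difference was 0.31, against 0.22 within a medium and 0.16 over both media. The larger number of genes at an unadjusted p under 0.05 with magnesium was therefore not shown to be a difference between the media.

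Gene groups that need no symbols were formed from position and structure. Genes spanning over 500 kb, which in brain include many genes for synaptic adhesion and ion channels, were higher more often than lower at 6 h. Over all genes tested, 49.5% were above 0, and 6.26% were higher and 6.17% lower at an unadjusted p under 0.05. Of 197 long genes tested, 131 were higher and 66 lower, 28 higher and 2 lower at an unadjusted p under 0.05, with a median log2 fold change of 0.10 against -0.0026 for all genes. Their summed counts took 0.817%, 0.581% and 0.641% of the library in untransfected cultures 1, 2 and 3 with magnesium, and 0.572%, 0.556% and 0.579% without it. In GFP cultures they took 0.812%, 0.624% and 0.74% with magnesium and 0.648%, 0.61% and 0.66% without it. The share was higher with the virus in 5 of 6 pairs, the exception being culture 1 with magnesium. The group median stayed above 0 without any 1 culture or library (0.06 to 0.17), but without culture 3 only 8 long genes were higher and 4 lower at an unadjusted p under 0.05. Without single libraries the 28 higher genes became 16 to 38. They were 16 without the GFP library of culture 1 or of culture 3 with magnesium and without the untransfected library of culture 3 in the magnesium-free medium. They were 17 and 18 without the GFP libraries of cultures 3 and 2 in the magnesium-free medium. With no replicate block 12 were higher, and with all 54 libraries 12 with the block and 5 without it.

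The same long genes were also compared at the neighbouring times. Their share of counts was higher with the virus in 5 of 6 pairs at 2 h and in 2 of 6 at 24 h. At 2 h the long genes were read in the fit of the 36 GFP and untransfected libraries of all times. Their median log2 fold change was 0.07, with 0 higher and 3 lower at an unadjusted p under 0.05. Over all 16842 genes 105 were higher and 658 lower at 2 h. At 24 h the median of the long genes was -0.35, with 3 higher and 55 lower, and 2 passed the threshold. All 16842 genes leaned the same way at 24 h, with 586 higher and 1457 lower, 25 past the threshold and a median of -0.03. The difference between 6 h and 24 h had a median of 0.48 over 202 long genes against 0.04 over all 16842. At an unadjusted p under 0.05, 46 of the long genes were above 0 and 0 below, against 931 above and 557 below over all 16842. None of the 202 passed the threshold for that difference. The share of counts in long genes was lower at later times in both arms, going from a median of 1.1% at 2 h to 0.58% at 6 h and 0.511% at 24 h in untransfected cultures, and from 1.16% to 0.654% and 0.423% in GFP cultures.

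Genes of the mitochondrial chromosome encode subunits of the respiratory chain and the RNAs that translate them. Of 21 tested, 18 were higher and 3 lower with the virus at 6 h, with a median log2 fold change of 0.22. The 2 genes at an unadjusted p under 0.05 were 9.52% of the group, below the 12.4% of all genes. They took 4.9%, 1.8% and 1.86% of the counts in untransfected cultures 1, 2 and 3 with magnesium and 2.04%, 1.87% and 2.05% without it. GFP cultures had 4.1%, 1.89% and 3.28% with magnesium and 3.07%, 2.01% and 2.3% without it. The share was higher with the virus in 5 of 6 pairs, again except for culture 1 with magnesium, whose untransfected library had the highest share of the 12. Without that library the median log2 fold change was 0.41, with 13 of 22 genes at an unadjusted p under 0.05. Without culture 3 the median was 0.08 and none reached that level, so the value depended on single cultures.

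Chromosome X held 532 tested genes, of which 49 were higher and 19 lower at an unadjusted p under 0.05, with a median log2 fold change of 0.07. Together they were 12.8% of the group, against 12.4% of all genes. With no replicate block the counts were 19 and 13, without culture 3 they were 13 and 20, and without the GFP library of culture 2 with magnesium 75 were higher. The share of counts on this chromosome was higher with the virus in 6 of 6 pairs, at 2.49% to 2.71% in GFP and 2.35% to 2.66% in untransfected libraries. At 2 h that share was higher in 5 of 6 pairs and at 24 h in 2 of 6. In the fit of 36 libraries at 24 h, 12 of its genes were higher and 61 lower at an unadjusted p under 0.05. Over all genes 586 were higher and 1457 lower there. On chromosome Y 4 genes were tested at 6 h, with 4 higher and 0 lower, 2 of them at an unadjusted p under 0.05. Genes with 1 exon block numbered 866, with 41 higher and 30 lower and a median of 0.10. Together these were 8.2% of the group, below the 12.4% of all genes. Without culture 3 they were 14 and 22, and with no replicate block 22 and 15. Without the untransfected library of culture 2 in the magnesium-free medium 64 were higher, and without that of culture 1 with magnesium 63 were. These groups were chosen after earlier results of the same libraries were known. Long genes, mitochondrial genes and single-block genes were higher in the same 5 of 6 pairs by share of counts. Mitochondrial genes have no introns and so count among the single-block genes, so the agreement of mitochondrial and single-block genes is no separate observation. Long genes were read in the same libraries, so their agreement with the others is not independent either. The part of the mitochondrial share in the values of the other groups was not tested.

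**Figure D3:**
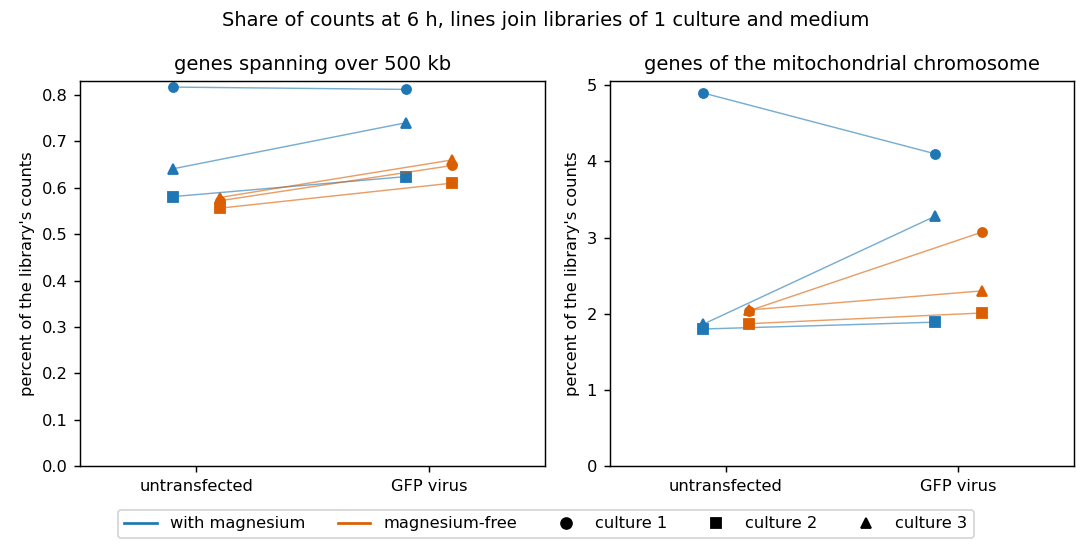
Percent of each library's counts in genes spanning over 500 kb (left) and in genes of the mitochondrial chromosome (right) at 6 h, with lines joining the untransfected and GFP library of 1 culture and medium. In each panel 5 of 6 lines go up and that of culture 1 with magnesium goes down.

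The 6 h comparison was then set beside 2 h and 24 h in the fit of 36 libraries, with 16842 genes and culture number as a block within each time. At 2 h 2 genes passed the threshold (0.0119%), both lower with the virus, and at 24 h 25 passed (0.148%), 6 higher and 19 lower. Without culture 1 or without culture 3 the 24 h count was 0, and without culture 2 or 3 the 2 h count was 0. In this fit 6 h again gave 0 genes, with a smallest adjusted p of 0.056 and 1486 at an unadjusted p under 0.05. Of those 1486, 552 were higher and 934 lower, or 37.1% higher, whereas the fit of the 12 libraries alone had 50.4% higher. The fits differed in libraries, genes tested, scaling and model terms at once, and which of these moved the balance was not tested. At 2 h 105 were higher and 658 lower at an unadjusted p under 0.05, and at 24 h 586 and 1457.

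**Figure D4:**
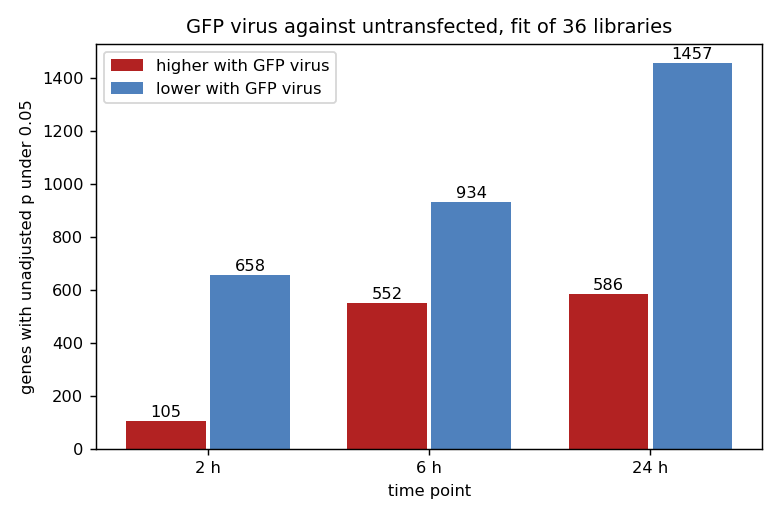
Number of genes with an unadjusted p under 0.05 between GFP virus and untransfected cultures at 2 h, 6 h and 24 h in the fit of 36 libraries, by direction. Lower genes outnumber higher ones at each time in this fit, by 658 to 105, 934 to 552 and 1457 to 586, whereas the fit of the 12 libraries at 6 h had 966 lower and 980 higher.

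The difference of the virus effect between times was tested directly. Between 6 h and 2 h edgeR called 0 genes (0%), with 134 at an unadjusted p under 0.05, while DESeq2 called 43. Between 6 h and 24 h edgeR called 1 gene (0.00594%), with 1488 at an unadjusted p under 0.05, and DESeq2 called 117. That gene, ENSRNOG00000003251, lies on chromosome 13 from 55389406 to 55398419 on the plus strand (mRatBN7.2), with 2 exon blocks and 4463 exonic bases.

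At 6 h ENSRNOG00000003251 ranged from 5.58 to 12.6 CPM in untransfected cultures (median 7.9) and from 6.74 to 21.5 CPM in GFP cultures (median 12.5). The arms overlapped, 4 of 6 pairs were higher with the virus, and the fitted difference was 0.51 on the log2 scale (SE 0.22, edgeR adjusted p = 0.366). The 2 pairs that were not higher were those of culture 2. At 24 h it ranged from 2.51 to 10.2 CPM in untransfected cultures (median 4.55) and from 0.639 to 8.74 CPM in GFP cultures (median 1.59), and with the virus it fell by 1.45 on the log2 scale (SE 0.24, adjusted p = 0.00896, edgeR). The virus effects at 6 h and 24 h differed by 1.96 (SE 0.32, adjusted p = 0.0472, edgeR). That call was lost in 8 of 11 alternatives, among them each of the 3 that left out a culture. Over all 11 the difference was 1.69 to 2.43. The adjusted p over all 11 ran from 4.98e-06 in DESeq2, which kept the call, to 0.989 in edgeR.

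The 25 genes that passed at 24 h were read at 6 h in the 12-library fit. The 6 genes that rose at 24 h were all higher at 6 h, 5 of them at an unadjusted p under 0.05, with a median log2 fold change of 0.70 (0.36 to 1.70) against 1.15 at 24 h. Of the 19 that fell at 24 h, 7 were lower at 6 h and 12 were not, with a median of 0.09 (-2.53 to 0.51) against -0.98. Among those 7, 2 had an unadjusted p under 0.05. Together 13 of the 25 had the same sign at 6 h and 24 h, and 50.9% of all 15654 genes tested at both times did. Over all genes, 6.26% were higher and 6.17% lower at 6 h at an unadjusted p under 0.05. Both genes that fell at 2 h were lower at 6 h, with log2 fold changes of -0.995 and -0.777, each at an unadjusted p under 0.05. The libraries at each time were separate, but the same culture numbers ran through all of them.

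**Figure D5:**
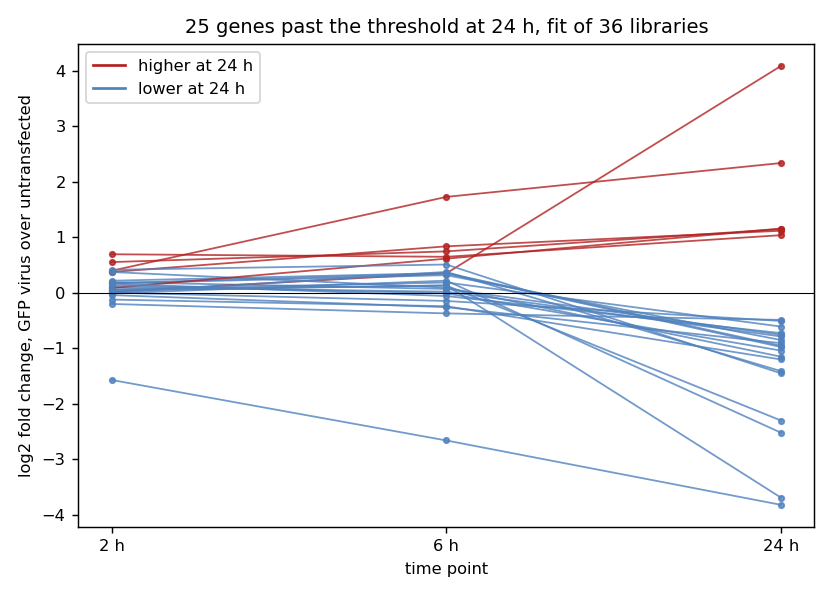
Log2 fold change of GFP virus over untransfected cultures at 2 h, 6 h and 24 h for the 25 genes past the threshold at 24 h, from the fit of 36 libraries, 1 line per gene. The 6 genes higher at 24 h (red) are above 0 at 6 h, while most of the 19 lower ones (blue) lie near 0 at 6 h.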

How the data were processed

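Per the labels' protocols, RNA from cultured cells was turned into stranded mRNA libraries, and reads were aligned with STAR and counted with featureCounts. Per the file headers, the deposited counts are read pairs per gene from featureCounts 2.0.0, limited to primary alignments of mapping quality 3 or more, with strand setting 2 and the mRatBN7.2 annotation of Ensembl release 105. The labels name rn6 instead, and coordinates here are those of the count table. Strand was used in counting, so antisense genes were separated, but near-identical copies were not identified. A deposited table of log2 values was not used here.

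Groups and culture numbers were taken from the labels. Differential expression was tested in R 4.3.3 with edgeR 4.0.16 (quasi-likelihood, robust) on the 12 libraries at 6 h, with terms for culture, medium and virus, TMM scaling and filterByExpr (minimum count 10, minimum total 15). The Benjamini-Hochberg adjustment ran over every gene in the fit, and an adjusted p under 0.05 was the threshold. The fit for other times used 36 libraries with 1 coefficient per group and culture number within time as a block. The SE was the absolute log2 fold change divided by the square root of F. Levels are CPM scaled by TMM over all 54 libraries. Shares are of the library's total count. The culture number was checked as a pairing by correlating deviations from the group means across genes, for libraries of different groups. The 18 same-numbered pairs had 0.129 to 0.608 (mean 0.362). The 36 pairs of different number had -0.501 to 0.33 (mean -0.172), so the ranges overlapped. Within groups, chi-square per gene was 23.2 to 320 over 12 pairs, far more than sampling noise gives. Pairs across groups were not compared.

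Alternatives were no block, all 54 libraries with and without the block, DESeq2 1.42.0 for genes totalling 10 counts or more, relative log expression (RLE) factors, no scaling factors, no or a stricter low-count filter (1 CPM in 6 libraries), and leaving out each culture or library. Genes were named by smallest p among those with the same sign in 6 of 6 pairs and a mean of at least 1 CPM, 8 per direction, of which 2 per direction are printed by identifier. The groups, lists and rules were chosen with earlier results of these data known, and the groups by position and structure after the files were seen. The 29 gene lists planned by symbol were not analysed here, since 0 of 30560 identifiers matched the 47357 genes of the RefSeq table at hand. Scripts were tested on simulated data.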

Additional observations from a re-analysis of the deposited data

Results flagged for a closer look

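For ENSRNOG00000003251 the virus effect differed between 6 h and 24 h by 1.96 on the log2 scale (SE 0.32, adjusted p = 0.0472, edgeR), the only gene of 16842 to pass that test. The effect was 0.51 at 6 h, higher in 4 of 6 pairs, and -1.45 at 24 h. Without culture 1, 2 or 3 the difference was 1.69 to 2.43, with adjusted p of 0.0758 to 0.985.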

How the results depend on the processing

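At 6 h the number of genes past the threshold was 0, and it was also 0 with no replicate block (827 at an unadjusted p under 0.05), with all 54 libraries and no block, with RLE factors, with no scaling factors, and with no or a stricter filter. It was 5 (4 higher, 1 lower) with all 54 libraries and a replicate block for each time, and 4 of those 5 were among the 16 genes described above. DESeq2 gave 167. Leaving out a culture gave 0 to 4, with 4 without culture 1 and 2 without culture 2. Leaving out 1 library gave 0 to 1, with 1 without untransfected culture 3 with magnesium and 1 without untransfected culture 1 with magnesium. DESeq2 gave 97 with magnesium, 116 without it, 22 for the difference between media and 43 for 6 h against 2 h, where edgeR gave 0 in each alternative. At 2 h the count of 2 became 0 with no replicate block, 19 and 0 with 54 libraries with and without the block, 103 with DESeq2, and 0 to 1 with a culture left out. At 24 h the count of 25 became 2 with no replicate block, 73 and 4 with 54 libraries with and without the block, 474 with DESeq2, and 0 to 28 with a culture left out, 0 without culture 1 and 0 without culture 3. For 6 h against 24 h the count of 1 became 117 with DESeq2 and 0 with no replicate block, with 54 libraries with or without the block, with RLE factors, with the stricter filter and without any 1 culture. The cause was not tested. The median log2 fold change of all genes, -0.0026, ran from -0.019 to 0.014 over 23 alternatives and so took either sign.

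The 4 genes given by identifier kept their sign throughout, over 22 alternatives for ENSRNOG00000036571 (2.67 to 3.23), which the stricter filter removed, and 23 for ENSRNOG00000049882 (0.55 to 0.68), ENSRNOG00000014008 (-1.25 to -0.85) and ENSRNOG00000071015 (-0.96 to -0.74). DESeq2 called all 4. With 54 libraries and the replicate block ENSRNOG00000036571 and ENSRNOG00000071015 passed in edgeR. Over the alternatives the adjusted p ran from 9.34e-07 to 0.916 and from 0.000184 to 0.993 for these genes. Median log2 fold changes kept their sign over 23 alternatives for long genes (0.06 to 0.17), mitochondrial genes (0.08 to 0.41) and chromosome X (0.03 to 0.09). With no scaling factors the split without magnesium was 515 higher and 318 lower, and that of the difference between media 391 and 112, against 316 and 156. Below 1 CPM the 95% interval lay within 2-fold for 23 of 2240 genes, so most such genes leave a 2-fold difference undecided.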
